A study of Mus musculus with 16 samples.

Results

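The mitochondrially encoded genes are the 37 genes with symbols beginning mt- on the mouse mitochondrial chromosome (chrM). They comprise 13 mRNAs, 2 rRNAs and 22 tRNAs of the 49452 genes in each table. They were chosen by symbol and annotated biotype alone, with no threshold on a measured value, and all 37 are accounted for. Their RNA was measured in tdTomato-positive cells sorted from the left lung lobe of 16 mice, 4 in each of 4 groups. In Acta2-tdT mice (Acta2-CreERT2; tdTomatoflox), the promoter of the smooth muscle actin gene drove an inducible Cre recombinase, and tamoxifen in the food at 400 mg/kg began 5 days after the agent. In Pdgfra-tdT mice (Pdgfra-CreERT2; tdTomatoflox), the promoter of a platelet-derived growth factor receptor gene drove the recombinase, and 5 injections of 3 mg tamoxifen were given at 6 weeks of age. Both lines shared the tdTomato reporter, and mice of each line received saline or bleomycin, a DNA-damaging drug used to model lung fibrosis, 14 days before the lungs were taken. The labels give an age of 11 weeks, and the study's methods describe the mice as male. The reporter marks cells in which the promoter was active during tamoxifen, and their descendants, so the 2 lines were labelled at different times relative to the agent.

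The libraries differed in more than their mitochondrial genes. Summed FPKM, the fragment value of a gene normalised to its length and to the mapped fragments of the library, of nuclear protein-coding genes ran from 29727 to 147467 in 12 mice and from 241916 to 466183 in the 4 Acta2-tdT bleomycin mice. The median FPKM of 1443 olfactory and vomeronasal receptor genes, low in every mouse, was 0.0134 to 0.122 in Acta2-tdT bleomycin mice. It was 0.323 to 0.332 in Acta2-tdT saline mice, 0.175 to 0.336 in Pdgfra-tdT saline mice and 0.0917 to 0.317 in Pdgfra-tdT bleomycin mice. Acta2 itself had 139 to 314 FPKM in Acta2-tdT saline mice and 1229 to 3211 in Acta2-tdT bleomycin mice. Pdgfra had only 2.14 to 3.82 FPKM in Pdgfra-tdT saline mice and 0.977 to 2.45 in Pdgfra-tdT bleomycin mice. The 6 fibroblast markers summed to 19.1 to 38.7 FPKM in Acta2-tdT saline mice, 1030 to 3143 in Acta2-tdT bleomycin mice, 6.82 to 56.4 in Pdgfra-tdT saline mice and 2.62 to 160 in Pdgfra-tdT bleomycin mice. In the same order of groups, smooth muscle markers summed to 450 to 991, 2605 to 6781, 7.88 to 21.2 and 1.61 to 43.4 FPKM, epithelial markers to 44.3 to 783, 317 to 1545, 29.03 to 129 and 40.3 to 219 FPKM, and endothelial markers to 1.15 to 1.91, 5.03 to 11.7, 0.931 to 65.6 and 1.23 to 113 FPKM. Red cell markers summed to at most 15.3, 82.8, 18.4 and 149.9 FPKM. All 6 leukocyte markers were measured, and their summed FPKM was 714 to 1415 and 4236 to 6325 in Acta2-tdT saline and bleomycin mice and 43.2 to 108 and 351 to 3046 in the Pdgfra-tdT groups. None of the 6 was at 0 in a whole group, and S100a8 alone had 460 to 892 FPKM in Acta2-tdT saline mice. The part of these library and marker differences in the results below was not tested. In such bulk samples, fewer cells of a type and less RNA per cell cannot be told apart.

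Mitochondrial DNA is a small circular genome inside the organelle. Its mRNAs encode core subunits of respiratory complexes I, III and IV and of the ATP synthase, its rRNAs build the mitochondrial ribosome, and its tRNAs serve only translation inside mitochondria. Both strands are transcribed as long precursors, from which the tRNAs are cut out and thereby free most mRNAs and rRNAs. Copies of mitochondrial DNA have also been inserted into nuclear chromosomes during evolution, and a read from a long, recent copy cannot be placed by its sequence.

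One such copy spans 11 members wholly and 2 in part by position. A stretch of 4662 bases, chrM:6381-11042 (GRCm38), is matched gene by gene and in order by 7 unprocessed pseudogenes on the minus strand of chromosome 1, chr1:24611535-24616197. Reference transcripts of GENCODE vM21 were compared base by base. mt-Co2 matched Gm28661 at 681 of 681 aligned bases, mt-Atp6 matched Gm10925 at 678 of 678, mt-Co3 matched Gm28437 at 783 of 783, and mt-Nd4l matched Gm10222 at 294 of 294. mt-Nd3 matched Gm28438 at 344 of 345, with T3C as the only substitution, counted from 1 at the first base of the mitochondrial gene and with its base first. The copy begins inside mt-Co1 and ends inside mt-Nd4: Gm29216 covers positions 1054 to 1545 of mt-Co1, and Gm28439 covers positions 1 to 876 of mt-Nd4. The 5′ ends of 2 pairs are shown, first a pair with no difference and then the edge of the copy, because they show which bases could tell a read of one from a read of the other. In the first pair capitals mark the start codon. In the second, which runs over positions 1054 to 1113 of mt-Co1 and 1 to 60 of Gm29216, capitals mark the 6 differing bases, T1056A, C1057T, A1059G, A1060G, C1062A and A1066T.
mt-Co2: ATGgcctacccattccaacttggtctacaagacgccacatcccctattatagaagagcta
Gm28661: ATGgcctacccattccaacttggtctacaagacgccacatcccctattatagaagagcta
mt-Co1: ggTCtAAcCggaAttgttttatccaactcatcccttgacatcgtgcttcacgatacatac
Gm29216: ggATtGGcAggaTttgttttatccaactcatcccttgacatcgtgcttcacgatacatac

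All 6 differences lie within the first 13 bases shown, and the remaining bases of the Co1 pair are the same. Whether these 13 bases belong to the copy was not tested, so its start and length are those of the annotated pseudogenes. mt-Atp8, a subunit gene of the ATP synthase with only 204 bases (chrM:7766-7969), lies inside the copied stretch, yet the annotated pseudogene Gm10925 covers only its last 43 bases. These are in capitals below, and they are also the first bases of mt-Atp6, since both reading frames overlap. The sequence is shown because this member had the highest FPKM of all mRNAs.
mt-Atp8: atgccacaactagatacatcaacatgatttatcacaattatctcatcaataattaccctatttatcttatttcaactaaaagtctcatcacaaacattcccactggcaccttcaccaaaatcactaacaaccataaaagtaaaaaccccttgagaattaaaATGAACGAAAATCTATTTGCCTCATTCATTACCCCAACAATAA

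The 5 mRNAs whose annotated sequence is almost entirely shared were at or near 0. mt-Co2, the second subunit of cytochrome c oxidase (chrM:7013-7696), was listed at 0 in 13 of 16 mice and reached 0.212 FPKM. mt-Co3, the third subunit of that enzyme, was listed at 0 in 5 mice and reached 0.694 FPKM. mt-Nd3 and mt-Nd4l, both complex I subunits, were listed at 0 in 7 and 6 mice and reached 6.17 and 6.00 FPKM. mt-Atp6, the proton channel subunit of the ATP synthase, was listed at 0 in 2 mice and reached 19.5 FPKM. The other 8 mRNAs were above 0 in all 16 mice, with highest values between 403 for mt-Nd2 and 30683 for mt-Atp8. Of the 30-base windows of each gene, 100% for mt-Co2, 99.9% for mt-Co3, 99.5% for mt-Atp6, 98.9% for mt-Nd4l and 98.1% for mt-Nd3 also occurred in another annotated transcript. The share was 64.8% for mt-Co1, 62.8% for mt-Nd4, 17.5% for mt-Nd5, 14.1% for mt-Nd2 and 8% for mt-Atp8, and 0% for mt-Nd1 and mt-Rnr1. Only annotated transcripts were searched. Bases of the copy between the pseudogenes were not compared, so the share of mt-Atp8, which lies inside the copied stretch, may be understated. The 7 pseudogenes on chromosome 1 were low as well and did not exceed 1.81 FPKM in any mouse, reached by Gm28437. Of the other genes sharing windows with a member, Gm12155 (5 windows of mt-Co2) reached 25.5 FPKM and was listed at 0 in 9 mice, and Gm13341 (315 windows of mt-Co2) had 0.101 to 6.11 FPKM. Gm4076, Gm11408, Gm13339, Gm11407 and Cep295 reached 4.33, 2.91, 2.68, 2.21 and 1.53 FPKM. How fragments with several equal placements were counted is not given in the sources used here, and its part in these zeros was not tested. A zero or low value of these 5 mRNAs is therefore not read here as their level in the cells.

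**Figure D1:**
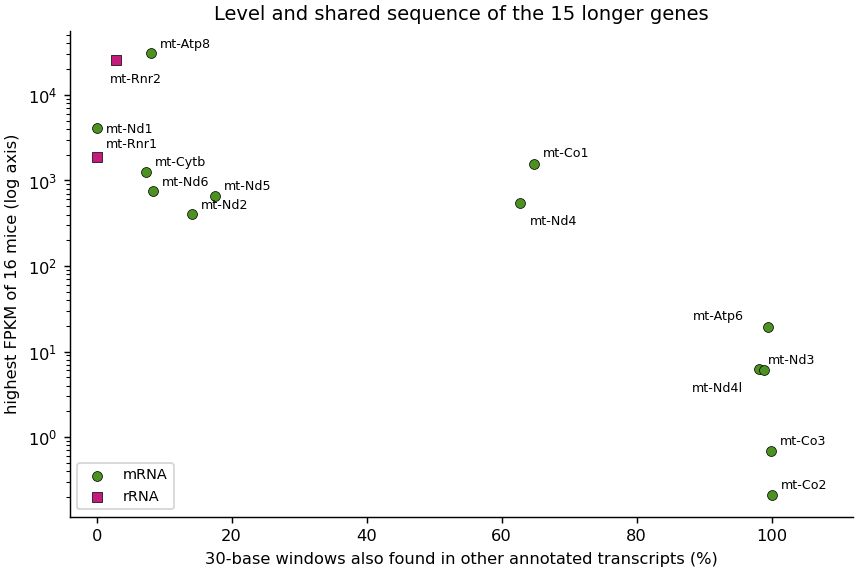
Each point is 1 of the 13 mitochondrial mRNAs (circles) or 2 rRNAs (squares), with the percent of its 30-base windows found in other annotated transcripts on the x axis and its highest FPKM over 16 mice on a log y axis. The 5 mRNAs above 98% reached at most 19.5 FPKM, and the other 10 genes reached at least 403 FPKM. Unannotated bases of the chromosome 1 copy were not searched, so the percent of mt-Atp8 may be understated.

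The rRNAs were strongly expressed and unequal. mt-Rnr2, the large ribosomal RNA (chrM:1094-2675), had 759, 934, 1177 and 1074 FPKM in Acta2-tdT saline mice and 25959, 15873, 8720 and 11584 FPKM in Acta2-tdT bleomycin mice. It had 338, 227, 2601 and 304 FPKM in Pdgfra-tdT saline mice and 6892, 3342, 1557 and 228 FPKM in Pdgfra-tdT bleomycin mice. Every Acta2-tdT bleomycin mouse thus lay above all 12 others, while the Pdgfra-tdT groups overlapped, with saline mouse 3 above 2 of the 4 bleomycin mice. mt-Rnr1, the small ribosomal RNA (chrM:70-1024), had 58.5, 77.3, 96.1 and 83.1 FPKM in Acta2-tdT saline mice and 1859, 951, 523 and 677 in Acta2-tdT bleomycin mice. It had 32.5, 23.4, 173 and 31.6 FPKM in Pdgfra-tdT saline mice and 481, 232, 73.7 and 16.3 in Pdgfra-tdT bleomycin mice. Within each group the mice with the highest and the lowest mt-Rnr1 were those with the highest and the lowest mt-Rnr2. FPKM of mt-Rnr2 was 12.1 to 12.98 times that of mt-Rnr1 in Acta2-tdT saline mice, 14.0 to 17.1 times in Acta2-tdT bleomycin mice, 9.64 to 15.02 times in Pdgfra-tdT saline mice and 14.0 to 21.1 times in Pdgfra-tdT bleomycin mice.

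Among the 5 mRNAs outside the copied stretch, the complex I subunit mt-Nd1 (chrM:2751-3707) was the highest in 15 of 16 mice, and mt-Nd6 was in Pdgfra-tdT saline mouse 1. It had 130, 174, 195 and 183 FPKM in Acta2-tdT saline mice and 4151, 2452, 2454 and 2233 in Acta2-tdT bleomycin mice. In Pdgfra-tdT mice it had 31.7, 28.1, 391 and 34.9 FPKM with saline and 780, 447, 209 and 30.7 with bleomycin. Again all Acta2-tdT bleomycin mice were above every other mouse, and the other 3 groups overlapped with one another. mt-Nd2, another complex I subunit, lay lower, with 40.9 to 74.5 FPKM after saline and 180 to 403 after bleomycin in Acta2-tdT mice, and with 12.8 to 109 and 18.3 to 176 FPKM in Pdgfra-tdT mice. In the same order of groups, mt-Cytb, the only complex III subunit encoded in mitochondria, had 48.5 to 78.1, 627 to 1266, 10.8 to 157 and 12.1 to 154 FPKM. mt-Nd5 had 65.1 to 94.8, 337 to 662, 17.4 to 159 and 19.5 to 180 FPKM. Its neighbour mt-Nd6 (chrM:13552-14070) is a complex I subunit encoded on the opposite strand and overlaps the end of mt-Nd5. mt-Nd6 had 76.5 to 138, 470 to 746, 24.7 to 148 and 27.9 to 249 FPKM, and the libraries do not mark strand, so reads of the overlap cannot be assigned.

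The 2 mRNAs at the edges of the copied stretch and mt-Atp8 were likewise highest in Acta2-tdT bleomycin mice. mt-Co1, the catalytic subunit of cytochrome c oxidase (chrM:5328-6872), had 36.8, 32.5, 58.4 and 62.4 FPKM in Acta2-tdT saline mice and 1561, 1036, 791 and 912 FPKM in Acta2-tdT bleomycin mice. It had 12.1, 9.55, 176 and 12.5 FPKM in Pdgfra-tdT saline mice and 344, 175, 78.7 and 10.2 FPKM in Pdgfra-tdT bleomycin mice. Pdgfra-tdT saline mouse 3 stood apart from its group mates, as the plot of levels by mouse shows for most members. mt-Nd4, a complex I subunit, had 28.4 to 51.9, 313 to 543, 6.45 to 126 and 9.22 to 172 FPKM in the 4 groups, and mt-Atp8 had 1174 to 2161, 12600 to 30683, 491 to 3237 and 608 to 5760 FPKM. FPKM divides by length, and mt-Atp8, with 204 bases, made up 68.4% to 84.0% of the summed mRNA FPKM in every mouse. When FPKM was multiplied by gene length, its share of the mRNAs was 27.9% to 49.4%.

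**Figure D2:**
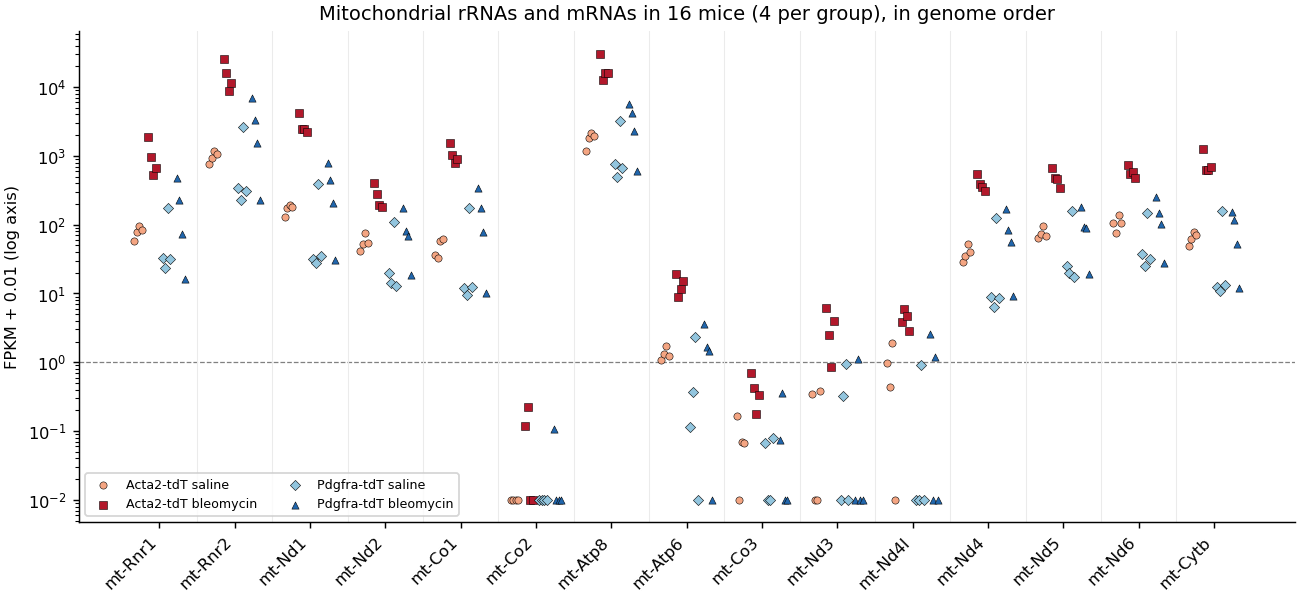
FPKM plus 0.01 (log axis) of the 2 rRNAs and 13 mRNAs in genome order, with 1 point per mouse and 4 mice in each of the 4 groups. Points at the bottom are values of 0, the dashed line marks 1 FPKM, and mt-Co2 does not exceed 0.212 FPKM in any mouse.

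Summed over classes, the FPKM level was highest in Acta2-tdT bleomycin mice, while the mRNA share of protein-coding FPKM overlapped between all groups. The mRNA sum had a median of 2453 FPKM (1634 to 2856) in Acta2-tdT saline mice, 21328 (18408 to 40045) in Acta2-tdT bleomycin mice, 856 (605 to 4508) in Pdgfra-tdT saline mice and 4148 (736 to 7821) in Pdgfra-tdT bleomycin mice. The rRNA sum had medians of 1084, 14543, 353 and 2602 FPKM in that order. Mitochondrial mRNA made up 4.13%, 6.01%, 5.45% and 4.03% of all protein-coding FPKM in Acta2-tdT saline mice and 11.0%, 7.07%, 4.69% and 4.31% in Acta2-tdT bleomycin mice. It made up 2.98%, 1.97%, 6.86% and 2.14% in Pdgfra-tdT saline mice and 5.04%, 8.94%, 6.27% and 2.42% in Pdgfra-tdT bleomycin mice. Every pair of groups overlapped in this share, unlike in the sums. The 5 mRNAs that lie outside the chromosome 1 copy (mt-Nd1, mt-Nd2, mt-Nd5, mt-Nd6 and mt-Cytb) gave shares of 0.789% to 1.18%, 0.831% to 2.18%, 0.305% to 1.55% and 0.364% to 1.60% in the same order of groups, which overlapped likewise. Sums and shares over members were not tested.

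**Figure D3:**
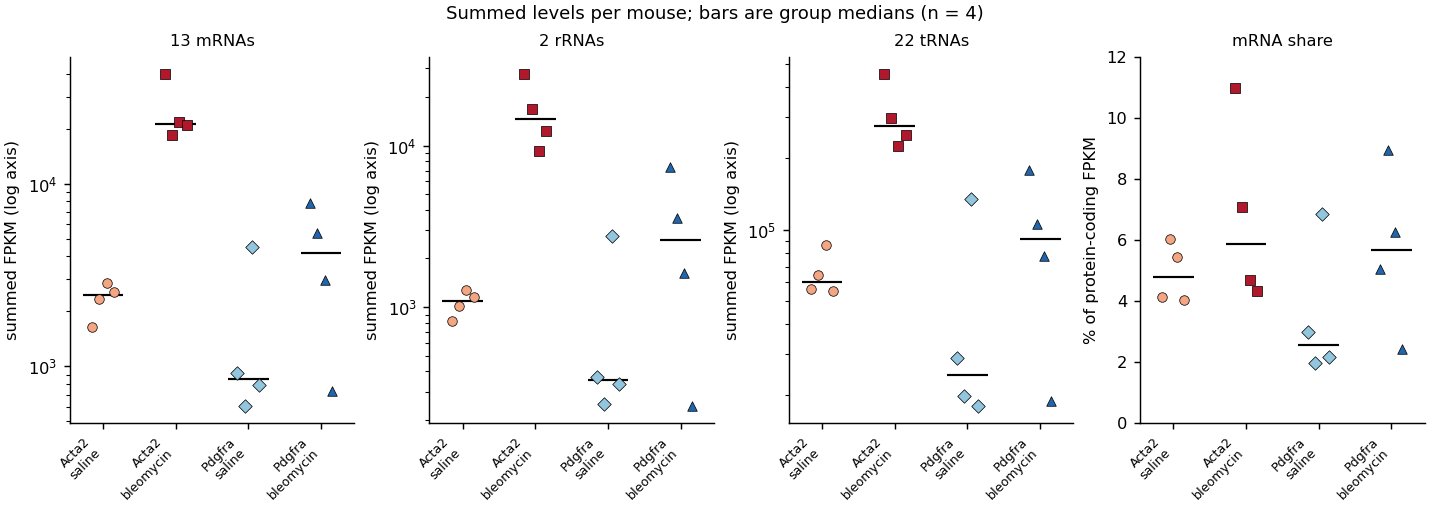
Summed FPKM of the mitochondrial mRNAs, rRNAs and tRNAs (log axes) and the mRNA share of protein-coding FPKM (linear axis from 0), with 1 point per mouse, 4 mice per group and a bar at each group median. The 3 sums of Acta2-tdT bleomycin mice lie above those of all other mice, and the shares overlap.

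The relative levels of these 5 mRNAs, which were not tested, differed between the Acta2-tdT groups without overlap for 4 of the 5. mt-Nd1 made up 33.3% to 39.7% of their summed FPKM in Acta2-tdT saline mice and 56.1% to 57.4% in Acta2-tdT bleomycin mice, a narrow range in the latter. It made up 25.1% to 40.5% in Pdgfra-tdT saline mice and 28.3% to 50.7% in Pdgfra-tdT bleomycin mice. No mouse of the other groups reached the Acta2-tdT bleomycin range. mt-Nd2 went the other way, with 10.4% to 12.8% after saline and 4.55% to 6.32% after bleomycin in Acta2-tdT mice, and 11.4% to 15.9% and 9.21% to 16.9% in Pdgfra-tdT mice. In the same order of groups, mt-Nd5 had 14.1% to 16.8%, 8.63% to 10.8%, 15.7% to 20.03% and 10.5% to 18.0%, and mt-Nd6 had 17.4% to 27.3%, 10.3% to 13.4%, 15.4% to 29.3% and 16.2% to 25.7%. For mt-Cytb the Acta2-tdT groups overlapped, while the Acta2-tdT and Pdgfra-tdT bleomycin groups did not, with 12.4% to 14.8%, 14.5% to 17.6%, 9.91% to 16.3% and 10.03% to 13.1%. Expressed as a ratio, FPKM of mt-Nd1 was 3.19, 3.29, 2.62 and 3.40 times that of mt-Nd2 in Acta2-tdT saline mice and 10.3, 8.87, 12.5 and 12.4 times in Acta2-tdT bleomycin mice. The ratio was 1.58, 1.96, 3.57 and 2.73 in Pdgfra-tdT saline mice and 4.42, 5.49, 3.01 and 1.68 in Pdgfra-tdT bleomycin mice. mt-Co1, partly copied, had 0.613 to 1.16 times the FPKM of mt-Nd2 in Acta2-tdT saline mice and 3.75 to 5.07 times in Acta2-tdT bleomycin mice, against 0.602 to 1.61 and 0.555 to 2.15 times in the Pdgfra-tdT groups. These ratios are within a mouse, so no scaling of a library alters them. With FPKM multiplied by length, mt-Nd1 still made up 52.2% to 53.8% of the 5 in Acta2-tdT bleomycin mice and 23.3% to 48.1% in the other 12. The receptor medians given above also set the Acta2-tdT bleomycin mice apart from most others, and their part in these ratios was not tested.

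**Figure D4:**
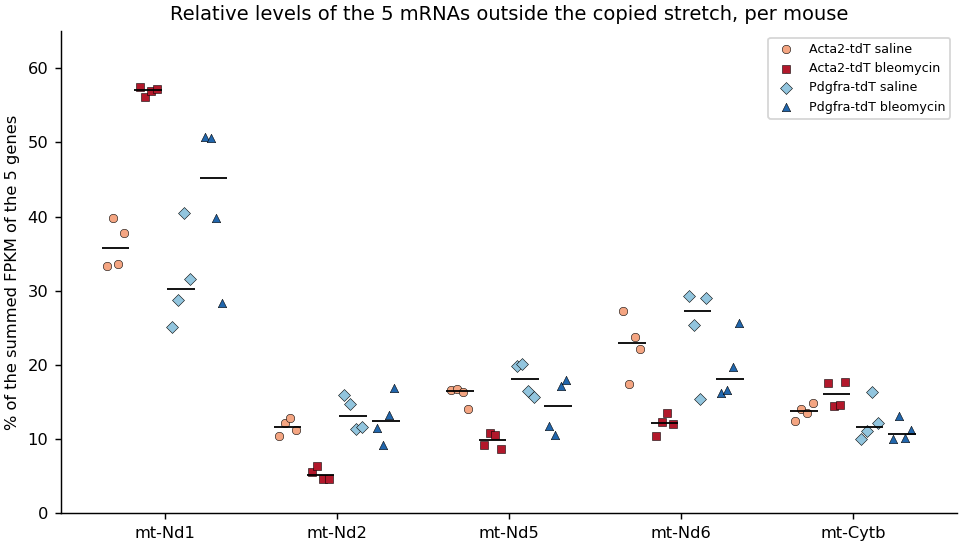
Percent of the summed FPKM of mt-Nd1, mt-Nd2, mt-Nd5, mt-Nd6 and mt-Cytb taken by each of the 5, with 1 point per mouse, 4 mice per group and a bar at each group median. In Acta2-tdT bleomycin mice mt-Nd1 takes 56.1% to 57.4%, above all other mice, and mt-Nd2 takes 4.55% to 6.32%, below all other mice.

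The first comparison asked what bleomycin did in Acta2-tdT cells. On the deposited FPKM, all 10 mRNAs tested and both rRNAs rose, led by mt-Co1, mt-Nd1 and mt-Rnr2, and the tRNAs split. Of the 34 members that passed the filter (at least 1 FPKM in 4 of the 8 mice), 16 rose and 3 fell at an adjusted p under 0.05 (limma on log2(FPKM + 1), Benjamini-Hochberg over 12524 genes). Across all genes tested, 86.6% were called, 70.4% higher and 16.3% lower, and the members' counts are to be read against these shares. mt-Co1 rose by 4.48 on the log2(FPKM + 1) scale (SE 0.40, limma adjusted p = 1.41e-05), mt-Nd1 by 4.01 (SE 0.34), mt-Rnr2 by 3.87 (SE 0.36), mt-Cytb by 3.56 (SE 0.39), mt-Rnr1 by 3.50 (SE 0.45), mt-Atp8 by 3.35 (SE 0.33) and mt-Nd4 by 3.32 (SE 0.38). mt-Nd5, mt-Atp6, mt-Nd6 and mt-Nd2 rose by 2.63, 2.61, 2.44 and 2.18, and mt-Nd4l by 1.62, where 1 saline mouse was listed at 0 and only 1 reached 1 FPKM. The bleomycin mice, at 2.86 to 6.00 FPKM, sufficed for mt-Nd4l to pass the filter, which largely fixed its direction. mt-Co2, mt-Co3 and mt-Nd3 did not pass the filter. The groups did not overlap for 16 members that were higher and 1 that was lower, where 67.8% and 12.5% of all genes did so, and the exact two-sided permutation p for each was 0.0286, the smallest that 70 labellings allow.

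These rises were relative to a table in which most genes rose. The median log2 difference was 1.90 over the 34 members and 1.76 over all genes tested. When the FPKM of each mouse was scaled to give all mice 1 common sum over nuclear protein-coding genes, the median of all genes moved to -0.52 and that of the members to -0.73. Of 35 members tested, 2 were then higher and 11, all tRNAs, lower, and of all genes 66.7% were called, 20.4% higher and 46.3% lower. mt-Co1 and mt-Nd1 stayed higher, by 1.52 (limma adjusted p = 0.0056) and 1.04 (adjusted p = 0.033). mt-Nd2, mt-Nd5, mt-Nd6 and mt-Nd4l changed sign and did not pass the test, with -0.76, -0.32, -0.52 and -0.13, and the other mRNAs and rRNAs tested both ways lay between 0.28 and 0.90 without passing it. With quantile normalization instead, 9 members were higher (6 of 10 mRNAs, both rRNAs and mt-Te) and 7, all tRNAs, lower, and of all genes 70.2% were called, 44.0% higher and 26.2% lower.

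In the second comparison, Acta2-tdT against Pdgfra-tdT cells after bleomycin, the mRNAs and rRNAs were again higher in Acta2-tdT cells on the deposited FPKM. Of 34 members tested, 15 were higher and none lower, comprising 10 of 11 mRNAs, both rRNAs and 3 of 21 tRNAs. The 10 include mt-Atp6, mt-Nd3 and mt-Nd4l, which the chromosome 1 copy covers. mt-Nd3 and mt-Nd4l were listed at 0 in 3 and 2 of the 4 Pdgfra-tdT bleomycin mice. Of all 11996 genes, 79.6% were called, 71.0% higher and 8.61% lower. mt-Cytb differed by 3.68 (SE 0.97, limma adjusted p = 0.0048), mt-Nd1 by 3.64 (SE 1.009), mt-Co1 by 3.60 (SE 1.08), mt-Rnr2 by 3.08 (SE 0.93) and mt-Rnr1 by 3.02 (SE 1.10). mt-Nd2 differed by 1.91 (SE 0.92) with an adjusted p of 0.072. The groups did not overlap for 14 members, all higher, against 56.8% of all genes. With the nuclear protein-coding sums made equal, no mRNA or rRNA passed the test and their differences lay between -0.70 and 1.07, while 7 tRNAs were lower, none of them among the 15. Of all genes, 38.1% were then called, 17.2% higher and 20.9% lower. The median over members moved from 2.12 to -0.06 and that of all genes from 1.81 to 0.30. On deposited FPKM, leaving out Acta2-tdT bleomycin mouse 5, whose mRNA and rRNA sums were the highest of all mice, lowered the count from 15 of 34 to 9 of 32 members tested, where 72.5% of all genes were called.

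The third comparison, between the lines in saline mice, turned on 1 animal. Only the tRNA mt-Tn, which carries asparagine, was called among 32 members tested (1.87 higher in Acta2-tdT, SE 0.37, limma adjusted p = 0.039), where 2.91% of all 8156 genes were called and 2.72% were higher. It was also the 1 member whose groups did not overlap, with 880 to 1400 FPKM against 183 to 563 FPKM, which rest on about 9, 5, 9 and 7 against 2, 5, 1 and 2 implied fragments, and 6.56% of all genes were higher without overlap. The call was lost with all 16 mice in 1 fit and with the mouse number as a block. With equal nuclear sums no member was called by limma, against 3.35% of all genes, and mt-Tn had 1.60 with an adjusted p of 0.21. With that scaling, 5 of 32 members and 1268 of 8412 genes had an unadjusted limma p under 0.05. All mRNAs and rRNAs tested had positive differences, from 0.64 for mt-Atp6 to 1.49 for mt-Nd1, and none passed the test. Without Pdgfra-tdT saline mouse 3, 21 of 32 members were called, all higher in Acta2-tdT cells, and 29.2% of all genes were called, 24.4% higher. Leaving out any other mouse gave 0 or 1 called members, where 0.199% to 1.33% of all genes were called. In mouse 3 the receptor median was 0.175 FPKM, against 0.309 to 0.336 in its 3 group mates, and its nuclear protein-coding sum was 61168 against 29964 to 36087. The part of these differences in its mitochondrial levels was not tested.

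Bleomycin against saline in Pdgfra-tdT cells gave no called member of 32 tested, and 0.124% of all 7278 genes were called. The differences of the mRNAs and rRNAs tested were positive, between 0.65 for mt-Atp6 and 1.86 for mt-Nd1, with SE of 0.54 to 1.29, and their limma adjusted p was 0.79. No member's groups were apart, where 2.58% of all genes were. An unadjusted limma p under 0.05 was found for 1 member and for 312 of 7278 genes. Without saline mouse 3, none of 29 members and 0.00% of all genes were called by limma. There 13 members and 761 of 5971 genes had an unadjusted limma p under 0.05. Bleomycin mice 5 and 8 stood at opposite ends, with 6892 and 228 FPKM of mt-Rnr2, as they did in their nuclear protein-coding sums of 147467 and 29727. The fitted interaction, the bleomycin effect in Acta2-tdT minus that in Pdgfra-tdT cells, was called for 2 of 35 members, mt-Atp6 with 1.97 (SE 0.64, limma adjusted p = 0.025) and mt-Nd3 with 1.81 (SE 0.53, adjusted p = 0.015), and for 39.8% of all 16605 genes, 36.6% higher. No member was called by limma without Acta2-tdT bleomycin mouse 5 or 8, where 31.7% and 25.1% of all genes were, and 5 were without Pdgfra-tdT bleomycin mouse 5, where 56.8% of all genes were. Without Pdgfra-tdT saline mouse 3 or bleomycin mouse 8, 4 were called, 2 in each direction, where 34.6% and 32.5% of all genes were. Without mouse 6 of the Acta2-tdT or the Pdgfra-tdT bleomycin group 1 was, where 40.4% and 34.5% of all genes were. mt-Atp6 and mt-Nd3 both lie in the copied stretch. No member was called by limma after scaling, where mt-Atp6 had -0.20, mt-Nd3 was not tested and 1.38% of all genes were called. An unadjusted limma p under 0.05 was then found for 9 of 34 members and 3446 of 18616 genes. mt-Nd1, mt-Co1 and mt-Rnr2 had interactions of 2.15, 2.64 and 2.11 with adjusted p of 0.20, 0.15 and 0.19. Each group enters 2 of the 4 pairwise comparisons and the interaction, so their counts are not independent.

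**Figure D5:**
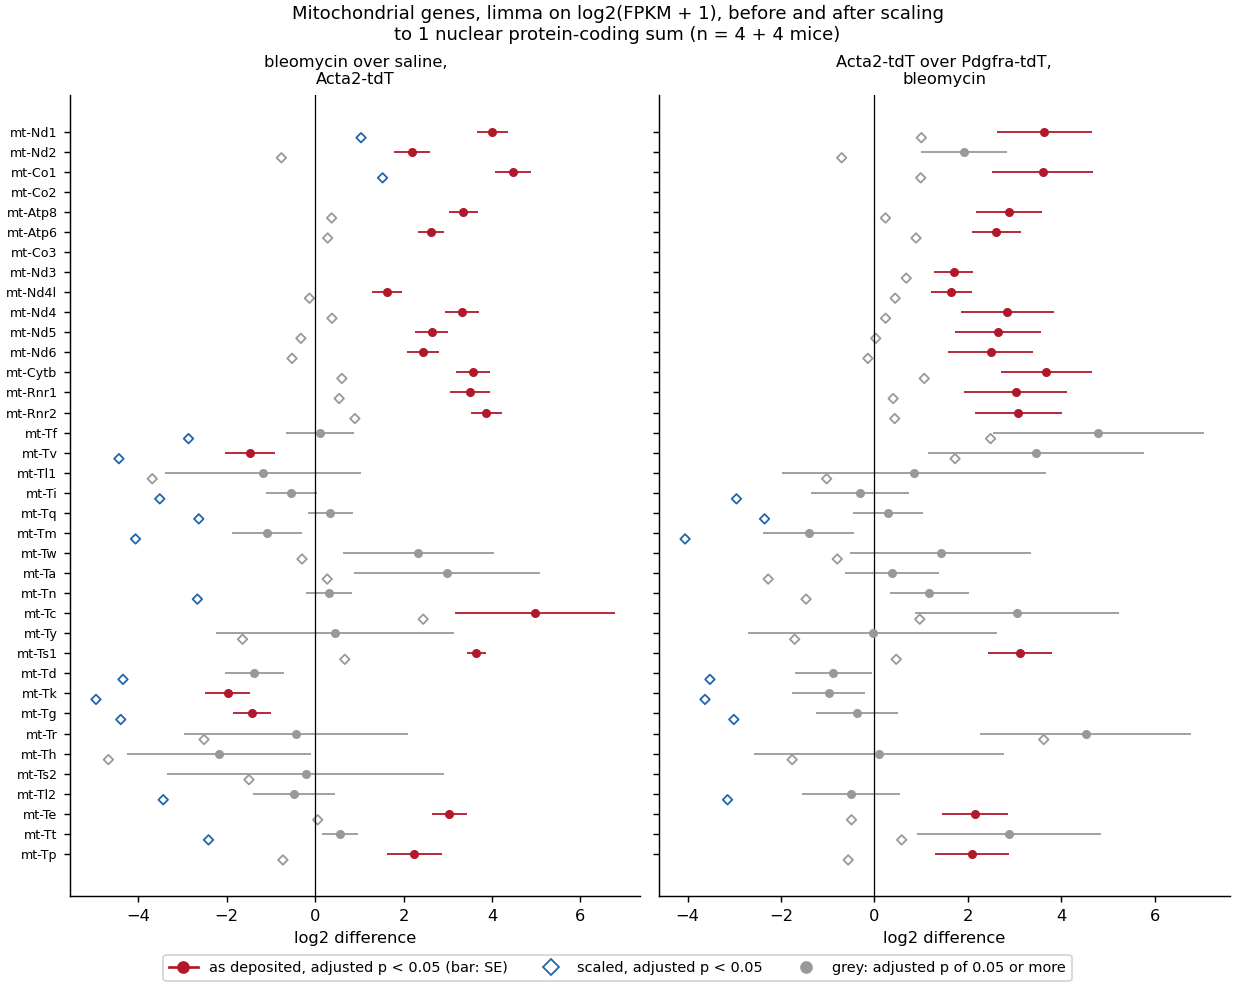
Log2 differences of the mitochondrial genes for bleomycin over saline in Acta2-tdT cells (left) and Acta2-tdT over Pdgfra-tdT cells after bleomycin (right), 4 against 4 mice. Circles with SE bars are fits on deposited FPKM and open diamonds are fits after scaling to 1 nuclear protein-coding sum. Coloured symbols have an adjusted p under 0.05, and members without a symbol did not pass the filter on deposited FPKM.

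On deposited FPKM, 4 of 22 tRNAs rose and 3 fell with bleomycin in Acta2-tdT cells, where 70.4% and 16.3% of all genes did. Many tRNA values rested on few fragments. The bounds that Cufflinks gives around each FPKM imply a number of fragments, and for 168 of 205 tRNA values under 10 fragments this came within 0.05 of a whole number. Of the 352 tRNA values (22 genes in 16 mice), 46 were 0, 126 came from up to 4 implied fragments and 180 from more. Of the 126, 10 had an implied number under 0.95, below a single fragment. A single fragment corresponded to 183 to 818 FPKM, so values of this size carry almost no precision. mt-Ts2, which carries serine, was listed at 0 in 11 mice, and no tRNA was listed at 0 in all 16. The 5 tRNAs with the highest median FPKM over all mice were mt-Ts1 (serine) with 23088, mt-Tm (methionine) with 6815, mt-Tk (lysine) with 6794, mt-Tq (glutamine) with 4372 and mt-Ti (isoleucine) with 3194. The genes of the highest 3, of 69, 69 and 65 bases, are printed below in the sense of the tRNA to show how short they are.
mt-Ts1: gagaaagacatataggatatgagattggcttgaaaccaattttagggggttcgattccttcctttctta
mt-Tm: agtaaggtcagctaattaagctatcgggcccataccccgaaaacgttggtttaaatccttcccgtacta
mt-Tk: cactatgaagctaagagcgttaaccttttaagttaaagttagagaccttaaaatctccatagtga

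mt-Ts1 (chrM:6870-6938) lies on the opposite strand to mt-Co1, directly at its 3′ end, and shares 3 bases with it. It had 18637, 16866, 19330 and 22773 FPKM in Acta2-tdT saline mice and 366076, 219775, 189785 and 222904 in Acta2-tdT bleomycin mice. It had 6486, 3046, 34664 and 5409 FPKM in Pdgfra-tdT saline mice and 88552, 57004, 23403 and 5173 in Pdgfra-tdT bleomycin mice. Within each group the mice with the highest and the lowest value were those of mt-Co1. Its FPKM was 212 to 245 times that of mt-Co1 in Acta2-tdT bleomycin mice, against 197 to 536 times in the other 12 mice. Without strand, a read over this junction cannot be given to one gene. mt-Ts1 made up 74.4% to 89.0% of the summed tRNA FPKM in Acta2-tdT bleomycin mice and 15.3% to 53.9% in the others. It rose by 3.65 with bleomycin in Acta2-tdT cells (SE 0.21, limma adjusted p = 4.96e-06), close to the mRNAs and rRNAs.

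The other abundant tRNAs did not follow. mt-Tk had 8874, 10238, 16767 and 7288 FPKM in Acta2-tdT saline mice and 4762, 4989, 1573 and 1216 in Acta2-tdT bleomycin mice, without overlap. It fell by 1.98 with bleomycin (SE 0.50, limma adjusted p = 0.0035) while mt-Atp8, its neighbour on the same strand, rose. mt-Tm had 4482 to 12908 FPKM with saline and 719 to 11415 with bleomycin in Acta2-tdT cells, a difference of -1.09 (SE 0.80) that did not pass the test. mt-Tq and mt-Ti, whose genes overlap on opposite strands, differed by 0.34 and -0.54 and did not pass it either. mt-Tm, mt-Tq and mt-Ti lie outside the copied stretch, whereas mt-Tk, mt-Ts1 and mt-Tg lie wholly inside it. None of these 6 shared a 30-base window with another annotated transcript, but the search covered annotated transcripts only, and the tRNA bases of the chromosome 1 copy were not compared. After scaling, mt-Tk, mt-Tm, mt-Tq and mt-Ti were all lower in Acta2-tdT bleomycin mice, with log2 differences of -4.96, -4.06, -2.63 and -3.52 that passed the limma test. The same 4 were lower in Acta2-tdT than in Pdgfra-tdT cells after bleomycin on the scaled values, with -3.63, -4.05, -2.35 and -2.95, and none of the 4 passed the test on deposited FPKM. mt-Tv and mt-Tg, named here because they were the other members that fell, had -1.47 (SE 0.57, adjusted p = 0.031) and -1.43 (SE 0.43, adjusted p = 0.0096).

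The 3 other tRNAs that rose in Acta2-tdT cells with bleomycin were mt-Tc, mt-Te and mt-Tp, which carry cysteine, glutamate and proline. mt-Te (chrM:14071-14139) had 812, 816, 1411 and 2483 FPKM with saline and 11588, 9910, 12887 and 7070 with bleomycin, and rose by 3.03 (SE 0.40, limma adjusted p = 5.6e-05). mt-Tp (chrM:15356-15422) had 506, 4091, 2105 and 793 FPKM with saline and 10905, 5770, 6821 and 4094 with bleomycin, and rose by 2.25 (SE 0.62, adjusted p = 0.0058). The saline and bleomycin values were apart for both, for mt-Tp by the narrow margin of 4091 against 4094. mt-Tc was listed at 0 in 1 saline mouse, had 256 to 825 FPKM in the other 3 and had 1719 to 7734 FPKM with bleomycin. Its fitted rise was 4.97 (SE 1.80, limma adjusted p = 0.024), a value that depends on the added 1 through the mouse at 0. mt-Te, mt-Tp and mt-Ts1 were also the 3 tRNAs higher in Acta2-tdT than in Pdgfra-tdT cells after bleomycin, by 2.15, 2.08 and 3.11. All 4 tRNAs that rose are encoded on the minus strand and all 3 that fell on the plus strand, a grouping chosen after these values were seen. With all 16 mice in 1 fit only 1 member was called lower, where 83.9% of all genes were called. Of the 8 minus-strand tRNAs 4 rose and none fell, with a median of 2.61, and of the 14 plus-strand tRNAs none rose and 3 fell, with a median of -0.81, on deposited FPKM where 70.4% of all genes rose and 16.3% fell. After scaling no tRNA was higher, and 2 of the minus-strand tRNAs (mt-Tq and mt-Tn) and 9 of the plus-strand tRNAs were lower, where 46.3% of all genes were lower. The libraries do not mark strand, so a read within a minus-strand tRNA cannot be told from a read of the plus-strand precursor that spans it. None of the 4 was called after scaling, where mt-Te had 0.06 and mt-Tp had -0.73. Outside mt-Ts1, the summed tRNA FPKM overlapped between all groups, with medians of 42452, 55146, 19571 and 51418.

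Nuclear genes that maintain, transcribe and translate mitochondrial DNA were mostly higher with bleomycin in Acta2-tdT cells on the deposited FPKM, as were 70.4% of all genes. Many passed the filter only through the bleomycin mice, which fixed their direction, so the counts are given beside the number of such genes. Of all 12524 genes tested, 3401 were under 1 FPKM in every Acta2-tdT saline mouse. Of the listed genes for mitochondrial DNA maintenance and transcription, 14 of 19 measured passed the filter and all 14 rose, 9 of them from under 1 FPKM in every saline mouse. Among the 9 were Polrmt, the mitochondrial RNA polymerase, with 0.159 to 0.520 FPKM after saline and 2.67 to 8.60 after bleomycin, and Top1mt, the mitochondrial topoisomerase, with 0.111 to 0.801 and 7.05 to 9.23 FPKM. Of 23 genes for mitochondrial RNA processing and stability 22 rose, 7 of the 23 being under 1 FPKM in every saline mouse, and Rexo2, a nuclease that degrades short RNA, rose by 4.14 (SE 0.44). Of 78 mitochondrial ribosomal proteins tested, which assemble on mt-Rnr1 and mt-Rnr2, 77 rose and 13 were under 1 FPKM in every saline mouse. All 17 tested tRNA synthetases (10 of them under 1 FPKM in every saline mouse), all 4 tested regulators of mitochondrial content (4) and all 10 import and marker proteins (2) rose too.

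Between the lines after bleomycin, 76 of 78 mitochondrial ribosomal proteins were higher in Acta2-tdT cells, 4 of the 78 being under 1 FPKM in every Pdgfra-tdT bleomycin mouse, where 71.0% of all genes were higher. With equal nuclear sums, 10 of 77 were higher and 1 lower, where 17.2% of all genes were higher and 20.9% lower. In saline mice 2 of 53 were higher, Mrpl36 (1.61) and Mrps7 (1.54), where 2.72% of all genes were. Mrps7 lay between 0.276 and 0.454 FPKM in the Pdgfra-tdT saline mice and passed the filter only through the Acta2-tdT mice, which fixed its direction. Mrpl36 had a median of 0.755 FPKM in Pdgfra-tdT saline mice and 2.09 to 7.25 FPKM in Acta2-tdT saline mice. The Acta2-tdT mice alone sufficed for Mrpl36 to pass the filter, which largely fixed its direction too. With bleomycin in Pdgfra-tdT cells none of the listed genes was called by limma, where 0.124% of all genes were, and the median difference of the 52 mitochondrial ribosomal proteins tested was 1.05 against 0.018 over all genes. With the nuclear protein-coding sums made equal, the calls for bleomycin in Acta2-tdT cells were 25 higher and 2 lower of 78 mitochondrial ribosomal proteins and 2 higher and 1 lower of 9 maintenance and transcription genes, where 20.4% of all genes were higher and 46.3% lower. The counts were 8 higher and 4 lower of 21 RNA processing genes, 3 and 1 of 15 synthetases and 2 and 1 of 3 regulators. All 10 import and marker proteins, among them Tomm20 of the outer membrane import pore, stayed higher.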

How the data were processed

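RNA of sorted cells was sequenced without strand information (SmartSeq2). Per the submitters' processing notes and the study's methods, the authors aligned the reads to mm10 with TopHat2 2.1.1 and estimated FPKM per gene with Cufflinks 2.1.1. The deposited FPKM are normalised per library and length, and no counts were used. Fragment numbers implied by the deposited bounds were used for tRNAs only: for mt-Nd1 in Acta2-tdT bleomycin mice they stayed at 2199 to 2259 while FPKM ran from 2233 to 4151, so library depth was not estimated. Rows were summed per gene (49534 rows, 49452 genes). The mitochondrial positions equalled those of GENCODE vM21. No pair of mice held identical values.

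Comparisons used limma 3.58.1 in R 4.3.3 with a mean-variance trend on log2(FPKM + 1), in genes of at least 1 FPKM in at least 4 mice fitted, leaving out genes with a failed estimate. Adjusted p-values are Benjamini-Hochberg values over all genes tested, called under 0.05. This fold scale understates changes of low genes. For single members an exact two-sided permutation test over 70 labellings was added. Replicates were separate mice per the labels. The fit was tested on simulated data. Other pseudocounts, filters, scalings and left-out mice were tried. Fragments behind tRNA values were derived from the confidence bounds deposited with the FPKM, and cover counting error only. Sums, shares and ratios were not tested.

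All 13 mRNAs and 2 rRNAs are named. Of the tRNAs, the 5 with the highest median FPKM over 16 mice and, per comparison, up to 5 called ones with the greatest change are named, and exceptions are marked. Per list of nuclear genes and comparison, up to 4 called genes could be named, and up to 8 nuclear copies of at least 1 FPKM. The members and lists were chosen with earlier results of these data known.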

Additional observations from a re-analysis of the deposited data

Results flagged for a closer look

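Of 121 groups of 4 values examined, 29 held 1 value whose gap to the nearest other was a larger part of the group's range than Dixon's critical value for 4 samples allows, where chance gives about 1 in 20. Of these, 22 were values of Pdgfra-tdT saline mouse 3, the animal on which the saline comparison turned, and they are correlated since they come from 1 library. Its FPKM was 173 for mt-Rnr1, 2601 for mt-Rnr2, 391 for mt-Nd1, 109 for mt-Nd2, 176 for mt-Co1, 3237 for mt-Atp8, 2.32 for mt-Atp6, 126 for mt-Nd4, 159 for mt-Nd5, 148 for mt-Nd6 and 157 for mt-Cytb. Among tRNAs it had 9538 FPKM of mt-Ti, 9013 of mt-Tq, 11924 of mt-Tm, 34664 of mt-Ts1, 1344 of mt-Te and 6050 of mt-Tp. Its summed FPKM was 4508 for mRNAs, 2774 for rRNAs and 135139 for tRNAs, its 5 mRNAs outside the copied stretch made up 1.55% of protein-coding FPKM, and its mt-Rnr2 was 15.02 times its mt-Rnr1.

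Acta2-tdT bleomycin mouse 5 stood apart from its group in 4 values, with 4151 FPKM of mt-Nd1, 1266 of mt-Cytb, an mRNA sum of 40045 FPKM and a ratio of mt-Rnr2 to mt-Rnr1 of 13.96. Pdgfra-tdT bleomycin mouse 5 had 1536 FPKM of mt-Tn, mouse 6 of that group had 1.11 FPKM of mt-Nd3, and mouse 7 had a ratio of mt-Rnr2 to mt-Rnr1 of 21.1. For mt-Nd3 the other 3 mice were listed at 0, so any value above 0 would have been flagged. The effect of bleomycin differed between the lines by the interaction test for mt-Atp6 (1.97 on the log2 scale) and mt-Nd3 (1.81), both covered by the chromosome 1 copy, where 39.8% of all genes were called. With a pseudocount of 0.1 neither was called by limma, and with equal nuclear sums mt-Atp6 had -0.20, not called, and mt-Nd3 was not tested. mt-Nd3 was listed at 0 in 3 of 4 Pdgfra-tdT bleomycin mice.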

How the results depend on the processing

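Counts of members called moved with scaling. Between the lines after saline, 1 member and 2.91% of all genes were called, and 0 members without the filter (0.135% of all genes), with equal nuclear sums (3.35%), with quantile normalization (2.93%), with all 16 mice in 1 fit (1.55%) and with a replicate block (0.441%), and 0 to 21 with 1 mouse left out (0.199% to 29.2%). Between the lines after bleomycin, 15 members and 79.6% of all genes were called, 7 without the filter (21.5%), 7 with equal nuclear sums (38.1%; all 7 lower, and 0 of them among the 15), 3 with quantile normalization (34.9%), 15 with the replicate block (78.2%) and 9 to 17 with 1 mouse left out (72.5% and 88.7% without mouse 5 of the Acta2-tdT or Pdgfra-tdT group, where the count was lowest and joint highest). For bleomycin in Acta2-tdT cells, 19 members and 86.6% of all genes were called, 13 with equal nuclear sums (66.7%; 11 of the 13 lower, and 5 called in the same direction as before), 16 with quantile normalization (70.2%; 9 higher and 7 lower), 15 with all 16 mice in 1 fit (83.9%; 14 higher and 1 lower), and 18 to 20 with 1 mouse left out (79.1% to 88.1%). In Pdgfra-tdT cells 0 were called throughout, where 0.00% to 1.09% of all genes were. The interaction was called for 2 members and 39.8% of all genes, for 0 with a pseudocount of 0.1 (20.9%), 1 without the filter (12.2%), 0 with equal nuclear sums (1.38%), 1, lower, with quantile normalization (9.61%) and 0 to 5 with 1 mouse left out (25.1% to 56.8%). The cause was not tested.

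Signs were followed for named members only, and some unnamed tRNAs turned too. With equal nuclear sums, signs turned between the lines after bleomycin for mt-Tq (-2.35), mt-Nd2 (-0.70), mt-Tn (-1.46), mt-Nd6 (-0.14), mt-Te (-0.49) and mt-Tp (-0.56), after saline for mt-Tk (-0.11), and for bleomycin in Acta2-tdT cells for mt-Tq (-2.63), mt-Nd2 (-0.76), mt-Tn (-2.66), mt-Nd4l (-0.13), mt-Nd5 (-0.32), mt-Nd6 (-0.52) and mt-Tp (-0.73). The interaction turned for mt-Rnr1 (-0.11), mt-Rnr2 (-0.27), mt-Nd1 (-0.24), mt-Nd2 (-1.52), mt-Tc (-1.45), mt-Ts1 (-0.57), mt-Atp8 (-0.37), mt-Atp6 (-0.20), mt-Nd4l (-0.58), mt-Nd4 (-0.72), mt-Nd5 (-0.82), mt-Nd6 (-1.06), mt-Cytb (-0.11) and mt-Tp (-1.10). Quantile normalization turned mt-Tq (-0.48), mt-Nd2 (-0.31) and mt-Tn (-0.42) between the lines after bleomycin, mt-Tq (-0.61) and mt-Tn (-1.31) for bleomycin in Acta2-tdT cells, and the interactions of mt-Nd2 (-0.72), mt-Ts1 (-1.48), mt-Nd4l (-0.043) and mt-Nd6 (-0.15). With 1 mouse left out, signs turned for mt-Tk between the lines after saline (-0.10 to 0.63), for mt-Ti (-1.33 to 0.32) and mt-Tq (-0.21 to 0.75) after bleomycin, for mt-Tq (-0.058 to 0.80) and mt-Tn (-0.19 to 0.61) for bleomycin in Acta2-tdT cells and for the interaction of mt-Tc (-1.94 to 2.44). Over the 4 pairwise comparisons, 1143 values of named members kept direction and side of the threshold, 25 passed it newly, 82 no longer did and 29 changed sign.

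The median mRNA share over all long genes was 2.87% and 4.86% in Acta2-tdT saline and bleomycin mice and 1.32% and 3.32% in Pdgfra-tdT saline and bleomycin mice. From the 5 mRNAs outside the copied stretch, an alternative chosen after seeing the data, it was 1.09%, 1.37%, 0.372% and 1.10% in that order. Without 1 mouse, the shares were 4.69% to 7.07% and 4.13% to 5.45% in Acta2-tdT bleomycin and saline mice and 5.04% to 6.27% and 2.14% to 2.98% in the Pdgfra-tdT groups.

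Mouse numbers did not pair the lines: deviations of equally numbered mice correlated at -0.31 to 0.07 after bleomycin and -0.09 to 0.16 after saline. Bleomycin and saline mice share no number, so no paired fit was possible there. tRNA values of few fragments and the 5 mRNAs covered by the copy limit what can be read from those members.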
